A study of Homo sapiens with 4 samples.

Results

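HuCCT1, a human cell line derived from an intrahepatic cholangiocarcinoma, was transfected with an siRNA against GRB2 (siGRB2) or with a nonspecific negative control siRNA (siControl). Both transfections used 30 nM of duplex, and after 24 h both cultures were stimulated with EGF at 5 ng/ml for another 24 h, with serum at 0.1%, so the control cells were also EGF-stimulated. RNA (200 ng) from each culture was hybridized to 1 single-colour array of a human 44 K design. A miR-376c mimic (miR-376c) and its negative control (miControl), given to the same line with the same dose and EGF schedule, were read on 1 array each and are used here only as reference levels. The knockdown rests on 1 siRNA duplex, 1 cell line and 1 array a side, so neither siGRB2 nor siControl has a replicate error and no test was possible. The ± values below are SDs between the probes of 1 gene.

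Genes were retained where 2 or more probes were well above background on both arrays and every one of these probes had the same sign of difference. Of 19483 genes named on the array, 4925 had 2 or more probes and 3234 had 2 or more that passed the background flag on both arrays. Among those 3234 genes, 1875 (58%) had probes that agreed in sign and are called members, while 1359 had probes that disagreed. A further 10462 genes had exactly 1 usable probe and were not considered, because a second probe is what the rule requires. Agreement of sign among members is set by this rule and is no finding. The probes agreed in 61% of genes with 2 usable probes and in 41.7% of those with 3 or more. What share random signs would give was not tested, so membership alone does not mark a gene as changed. The member closest to 0 was SBDS, a ribosome maturation factor, with probe differences of 0.0157 and 0.0049 (log2).

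GRB2 is an adaptor protein without enzymatic activity. Its SH2 domain binds phosphorylated tyrosines on EGFR or on the adaptor SHC1, and its SH3 domains bring the exchange factor SOS1 to the membrane, where SOS1 loads RAS with GTP and so feeds the RAF, MEK and ERK kinases. ERK in turn drives immediate early transcription and its own feedback inhibitors of the DUSP and SPRY families. In bile duct carcinoma cells EGF is a stimulus for migration, a process that depends on turnover of the actin cytoskeleton.

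The targeted transcript was examined first. GRB2 was represented by 1 probe with 1 spot (A_24_P407717), which keeps it out of the members. Its level, given throughout as log2 intensity less the 75th percentile of the array, was -0.65 with siGRB2, -0.10 with siControl, 0.07 with miR-376c and 0.62 with miControl. GRB2 was thus lowest on the siGRB2 array, at 68.2% of the siControl level. IL1B, the cytokine interleukin 1 beta, stood at -1.21 with siGRB2, -0.04 with siControl, -1.70 with miR-376c and -0.29 with miControl. MMP9, a secreted gelatinase, stood at -3.36, -2.05, -3.49 and -2.32 on the same arrays in that order. Both genes were lower on the siGRB2 array than on either control array, and each was represented by 1 probe of 10 spots. All 10 markers of biliary epithelium examined, including KRT7 (8.09 and 8.01) and KRT19 (8.32 and 8.49), were well above background on both arrays. Of 8 hepatocyte markers 2 were well above background on each array, of 6 fibroblast markers 2, of 5 endothelial markers 3, and of 5 leukocyte markers 4 with siGRB2 and 3 with siControl. The summed linear level of the biliary list was 770 with siGRB2 and 792 with siControl, and that of each other list lay between 0.122 and 1.01.

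The arrays did not stand equally far from one another. Over the 3207 genes with 2 or more probes on all 4 arrays, the SD over genes of the difference was 0.44 between siGRB2 and siControl and 0.43 between siControl and miControl. It was 0.38 between siControl and miR-376c, but 0.25 to 0.29 among the pairs that left siControl out. The differences of a gene's probe pair correlated across 2706 genes with a Pearson r of 0.24 for siGRB2 against siControl. The r was 0.18 for siControl against miControl and 0.14 for siControl against miR-376c. Without siControl it was 0.44 for siGRB2 against miControl, 0.56 for siGRB2 against miR-376c and 0.48 for miR-376c against miControl. The 2 probes had the same sign in 56.5% to 61% of these genes with siControl in the comparison, and in 67.3% to 74.4% without it. These are descriptions across genes, which share arrays and are not independent. The siControl array therefore differed from every other array by more, and with less agreement between probes, than the others did among themselves. With 1 siControl array, a property of that array and the effect of the control siRNA cannot be told apart, and for this reason the levels on all 4 arrays are given for the leading genes.

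**Figure D1:**
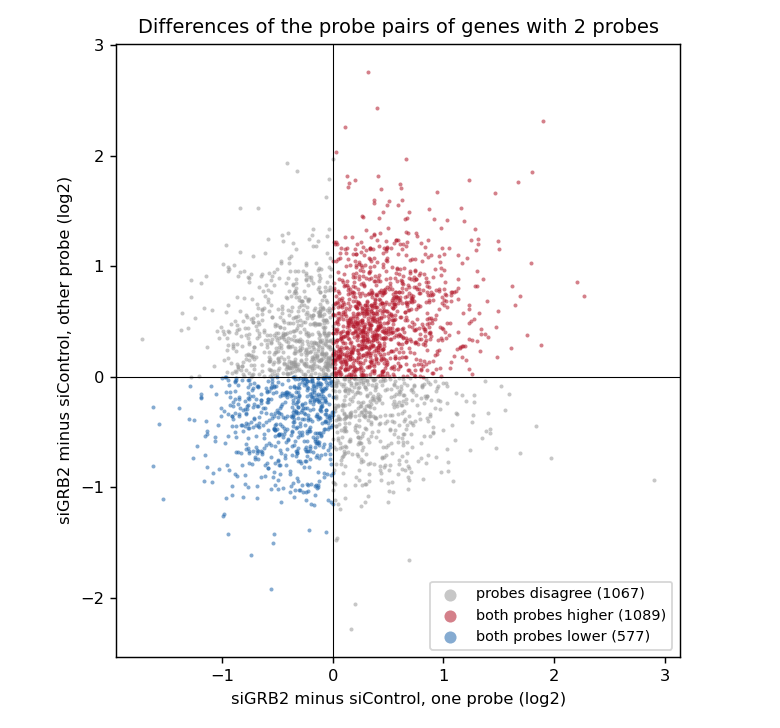
Each point is 1 of 2733 genes with 2 usable probes, plotted by the difference siGRB2 minus siControl (log2) of one probe against that of the other. Red genes (both probes higher) and blue genes (both lower) are the members, and grey genes are those whose probes disagreed, with the cloud centred slightly to the upper right of 0.

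Of the 3234 genes, 1239 (38.3%) had all probes higher with siGRB2 and 636 (19.7%) had all probes lower. A mean difference of at least 1.5-fold was reached by 437 of the higher genes (13.5% of those tested) and 161 of the lower genes (4.98%). At least 2-fold was reached by 68 higher genes (2.1%) and 12 lower genes (0.371%). The median difference over all 3234 genes was 0.12 (log2), and list values below are also given less this median. The split between higher and lower depended on the scaling. It was 1239 to 636 with the 75th percentile, 601 to 1284 when arrays were aligned on their medians, 1114 to 826 after quantile normalization and 1026 to 778 in the deposited log2 values, with all-gene medians of -0.16, 0.04 and 0.04 for those 3 alternatives. The direction of 1114 members, 592 higher and 522 lower, was the same under all 6 ways of setting the 0 point that were tried. Of the genes described below, ATF3, ATG9A, KIF22, KIF4A, KMT2A, MUC1, MUC4, PLK1, SHC3 and XPO5 among the higher genes and CCNB1, CCT4, NRAS and VEGFA among the lower genes did not keep agreeing probes on one side under all of them.

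The higher and the lower genes also differed in signal. When the genes were divided by mean level into 4 bins of equal size, 50.2% of the dimmest bin were higher and 12.98% lower, and the median difference was 0.27. In the brightest bin, 28.4% were higher and 30.8% lower, with a median difference of -0.02. The part of signal level in the differences of single genes was not tested.

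The 10 highest members included 3 actin regulators, 2 secreted factors and a mitochondrial import channel, and the 10 lowest included a nuclear kinase, a nuclear receptor and the EGFR ligand AREG. Genes were ranked by their probe closest to 0, so that 1 extreme probe could not place a gene. NPPB, which encodes the natriuretic peptide BNP, led the higher genes. Its level was -1.91 with siGRB2, -4.01 with siControl, -2.19 with miR-376c and -2.80 with miControl, a difference between siGRB2 and siControl of 2.11 ± 0.29 (2 probes). NPPB was therefore highest on the siGRB2 array and lowest on the siControl array. TOMM40, the channel of the mitochondrial outer membrane translocase, stood at -1.58, -3.41, -1.67 and -1.502 in the same order, a difference of 1.83 ± 0.04 (2 probes). Here 3 arrays lay close together and siControl lay apart, below them. IL32, a cytokine of epithelial and immune cells, stood at 2.06, 0.56, 1.39 and 1.38, a difference of 1.51 ± 0.39 (2 probes). In this case siGRB2 and siControl departed to opposite sides of the other arrays.

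FTL, the light chain of the iron store ferritin, had levels of 4.53 with siGRB2, 3.17 with siControl, 4.35 with miR-376c and 4.69 with miControl, a difference of 1.36 ± 0.19 (2 probes). SIRT2, a cytoplasmic NAD-dependent deacetylase, had levels of -2.66, -3.90, -3.02 and -2.52, a difference of 1.24 ± 0.01 (2 probes). Both genes were below miControl on the siGRB2 array. SH3GL1P2, a pseudogene, had levels of -3.21, -4.78, -3.58 and -3.05, a difference of 1.57 ± 0.14 (2 probes). TBC1D3B, a member of a multigene family, had levels of -3.21, -4.76, -3.79 and -2.92, a difference of 1.55 ± 0.23 (3 probes). Both again lay below miControl on the siGRB2 array. For these genes near-identical copies can share signal, so the transcript measured is uncertain.

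The lower genes were led by RPS6KA5, which encodes MSK1, a nuclear histone and CREB kinase activated by ERK and p38. Its level was -1.80 with siGRB2, -0.47 with siControl, -1.56 with miR-376c and -1.64 with miControl, a difference of -1.32 ± 0.31 (2 probes). NR3C1, the glucocorticoid receptor, stood at 1.34, 2.47, 1.505 and 1.63, a difference of -1.13 ± 0.19 (2 probes). In both genes siGRB2 was the lowest of 4 arrays, but close to miR-376c and miControl, whereas siControl stood above all. EML4, a microtubule-binding protein, differed by -1.03 ± 0.09 (2 probes). One of its probes stood at 2.70, 3.66, 2.80 and 2.53 in the same order, while the spot of the other carried an outlier flag on the miControl array. On the first probe siControl was again highest, and miControl rather than siGRB2 was lowest. MTSS1, a membrane-bending actin regulator, stood at -3.80, -2.62, -4.06 and -3.30, a difference of -1.19 ± 0.33 (2 probes). CCSAP, a centriole and spindle protein, stood at -1.19, -0.17, -1.35 and -0.95, a difference of -1.02 ± 0.09 (2 probes). In both, miR-376c was lowest. SPTSSA, a small subunit of serine palmitoyltransferase, stood at 1.14, 2.02, 1.32 and 1.27, a difference of -0.88 ± 0.0037 (2 probes). Genes for mitochondrial proteins were also among the lowest 10. MRPL19, a mitochondrial ribosomal protein, stood at -0.16, 0.90, -0.03 and -0.72, a difference of -1.05 ± 0.16 (2 probes), and was thus 0.56 higher with siGRB2 than with miControl. NDUFAF6, an assembly factor of respiratory complex I, stood at -2.07, -1.11, -1.86 and -1.62, a difference of -0.95 ± 0.05 (2 probes).

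**Figure D2:**
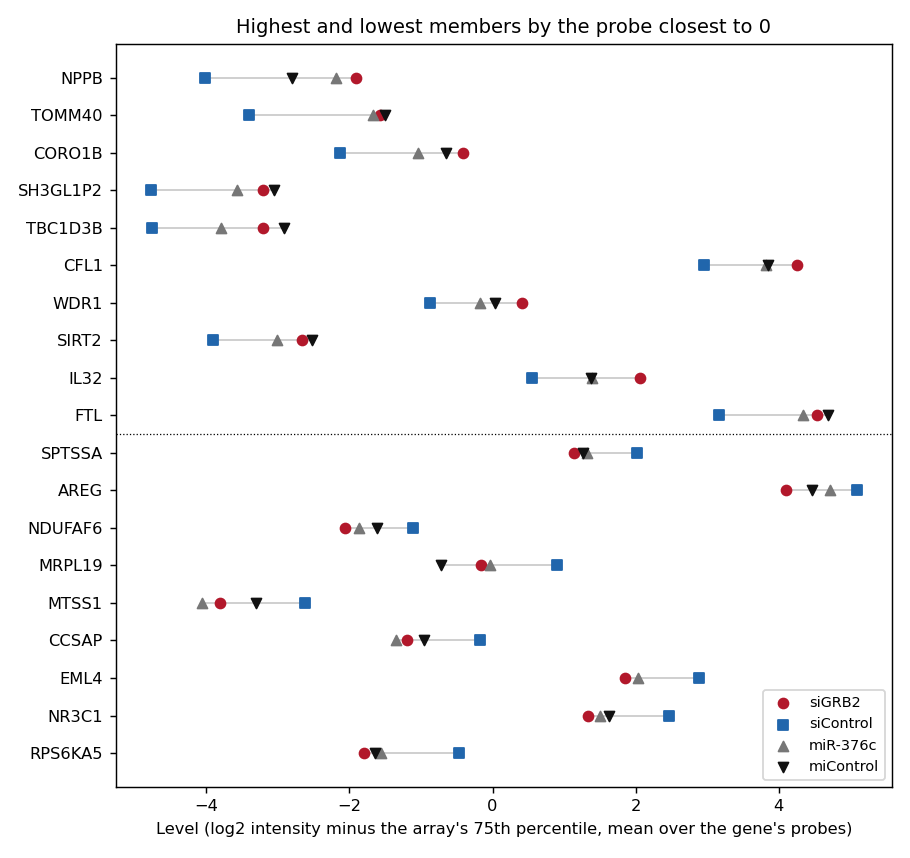
Levels on the 4 arrays (log2 intensity minus the 75th percentile, mean over the probes of a gene) of the 10 members highest (above the dotted line) and 9 of the 10 lowest by the probe closest to 0. In all 19 genes siControl (square) lies at one end, below the other arrays in the upper genes and above them in the lower genes, while siGRB2 (circle) is at the opposite end in some, such as IL32, CFL1 and AREG. EML4 has no miControl point, since 1 of its probes had no value there.

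The position of both arrays was counted for all members measured on 4 arrays. Among the 68 genes at least 2-fold higher, siControl lay below every other array in 67 and siGRB2 lay above every other array in 45. The 2 arrays lay at opposite ends in 44, and siControl alone lay outside in 22. Among the 10 genes at least 2-fold lower on 4 arrays, siControl lay above all others in 10 and siGRB2 below all others in 7. The same was seen at smaller differences. Of 1234 higher members siControl lay beyond all other arrays in 1040 and siGRB2 in 613, and of 628 lower members siControl did so in 527 and siGRB2 in 314. For the 68 genes the median difference of siGRB2 from miControl was 0.15, and that of siControl from miControl was -0.99. Over all 3207 genes measured on 4 arrays these medians were 0.005 and -0.12. In the 68 genes siControl thus lay farther from miControl than siGRB2 did. Members were chosen by the difference between siGRB2 and siControl, which favours positions at opposite ends. The positions were not counted over all genes, so no share of all genes stands beside these counts. Of the members described below by their difference alone, ATF3, ATG7, ATG9A, FGFR1, KIF22, KMT2A, MUC16, POLE, PSAP, SON and SPRY4 were higher than siControl but below miControl on the siGRB2 array. Likewise ANXA7, CCNE2, HSP90AA1, HSPH1, NCAPD2, NRAS, PRDX1, PSMG4, SMARCA2, SMC2, UHRF1, UQCRH and VEGFA were lower than siControl but above miControl.

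Members in which every probe on the siGRB2 array lay beyond all 3 other arrays were therefore listed separately, a selection made after the values had been seen. There were 356 such genes among 1234 higher members and 206 among 628 lower members. Membership already places every probe beyond siControl, and the same count was not made for another array. The gap to the nearest other array was at least 0.5 (log2) on every probe in 3 genes above and 0 below. SUSD2, a membrane protein with a sushi domain, had a level of 0.08 with siGRB2, -1.33 with siControl, -2.05 with miR-376c and -1.44 with miControl. SUSD2 thus stood apart on the siGRB2 array alone, and its smallest gap on a probe was 1.03. For IL32 the smallest gap was 0.64. HSPB1, the small heat shock protein HSP27, which also caps actin filaments, had levels of 0.74, -0.42, 0.08 and 0.00 in the same order and a smallest gap of 0.57. Below the other arrays the gaps were smaller. They were led by SNX10, an endosomal sorting nexin (-0.47), PEX13, a peroxisomal import factor (-0.43), CLCN5, an endosomal chloride transporter (-0.42), and SAA2, an acute phase protein (-0.39). SAA2 had levels of 0.64 with siGRB2, 1.27 with siControl, 1.43 with miR-376c and 1.46 with miControl, so the 3 other arrays lay close together.

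Genes of the pathway in which GRB2 acts were found in both directions. Of 62 genes in a list of EGFR and GRB2 signalling, 57 had a usable probe and 18 had 2 or more. All probes were higher in 4 (22.2%) and lower in 5 (27.8%), beside 38.3% and 19.7% of all genes tested, and they disagreed in 9. At the receptor, the 3 EGFR probes disagreed (0.07 ± 0.72), as did the probes of ERBB3 (0.48 ± 0.77). Among adaptors, SHC1, a direct partner of GRB2, had probes that disagreed (0.65 ± 0.96), while its neuronal relative SHC3 was higher (0.42 ± 0.22). GRB10, an adaptor that inhibits insulin and growth factor receptors, had levels of 1.57 with siGRB2, 2.46 with siControl, 1.44 with miR-376c and 1.70 with miControl. Its difference was -0.89 ± 0.07 (2 probes), and siControl alone lay outside the other arrays. PTPN11, the phosphatase SHP2, had probes that disagreed (0.13 ± 0.35).

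At the level of RAS, the exchange factor SOS1, which GRB2 carries to the membrane, differed by 0.58 ± 0.05 (2 probes), with levels of -4.18, -4.76, -4.31 and -3.99 on the siGRB2, siControl, miR-376c and miControl arrays. NF1, the GTPase-activating protein that switches RAS off, differed by 0.86 ± 0.29 (3 probes), with levels of -2.09, -2.95, -2.30 and -2.03. In both, siGRB2 lay above siControl and below miControl. RRAS2, a RAS-related GTPase, differed by -0.88 ± 0.02 (2 probes), with levels of 1.49, 2.37, 1.43 and 1.73. NRAS (-0.16 ± 0.22) was a member by a narrow margin, since 1 of its probes was close to 0 (-0.0018). Downstream, RPS6KA3, the ERK-activated kinase RSK2, differed by -0.49 ± 0.59, and the probes of RPS6KA1 and RPS6KA2 disagreed. STAT3, a transcription factor phosphorylated downstream of EGFR and cytokine receptors, differed by 0.92 ± 0.30 (2 probes), with levels of -1.46, -2.38, -1.65 and -2.23. STAT3 was higher with siGRB2 than with either negative control, by 0.77 in the case of miControl.

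**Figure D3:**
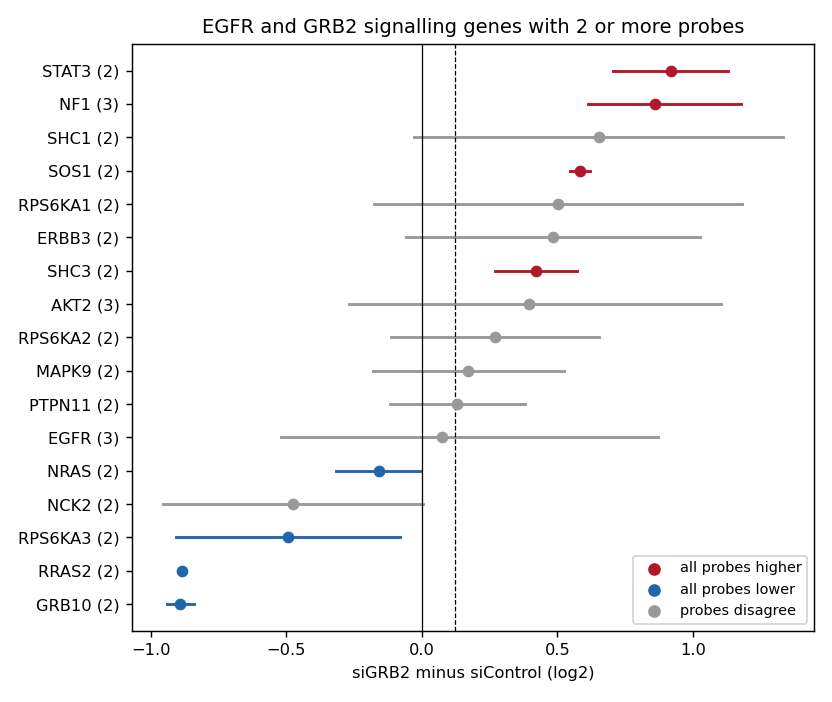
Difference siGRB2 minus siControl (log2) of 17 of the 18 EGFR and GRB2 signalling genes with 2 or more usable probes, as the mean (point) and range (line) over the number of probes given in parentheses. The dashed line is the median of all 3234 genes (0.12), and ranges that cross 0 belong to the 9 genes whose probes disagreed.

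Ligands of EGFR were measured by few probe pairs, and AREG was the clearest. AREG encodes amphiregulin, a shed EGFR ligand that carcinoma cells produce in response to EGFR signalling itself. Its level was 4.11 with siGRB2, 5.10 with siControl, 4.71 with miR-376c and 4.47 with miControl, and the difference between siGRB2 and siControl was -0.99 ± 0.12 (2 probes). Both probes were lowest on the siGRB2 array, with a smallest gap of -0.34 to the next array. ADAM10, a sheddase of EGF family ligands, differed by -0.66 ± 0.03, whereas the ligands TGFA (0.51 ± 0.11) and NRG1 (0.50 ± 0.16) were higher. The TGFA levels of siGRB2, miR-376c and miControl were -1.90, -1.89 and -1.91, and siControl lay apart at -2.41. Of 8 genes of ERK output and feedback with 2 or more probes, 3 (37.5%) were higher and 2 (25%) lower, or 2 and 4 with arrays aligned on their medians. The higher genes were ATF3, a stress-induced transcription factor (0.82 ± 0.68), DUSP8, a MAP kinase phosphatase (0.75 ± 0.18), and SPRY4, a feedback inhibitor (0.71 ± 0.48). The lower genes were ETV1, an ETS factor (-0.79 ± 0.42, 4 probes), and VEGFA, an angiogenic factor (-0.49 ± 0.65). The list median less that of all genes was -0.12. In the interleukin 1 and NF-kB list, 6 of 9 genes had probes that disagreed, CXCL1 and CXCL2 among them.

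Actin regulators held some of the largest differences among members. Of 25 genes for actin-based motility, 11 (44%) were higher and 5 (20%) lower (9 and 9 with arrays aligned on their medians), shares close to those of all genes tested, and the list median less that of all genes was 0.05. The highest of the list were CORO1B and CFL1, which act in filament disassembly, and WDR1, which is not in the list but among the 10 highest members, acts with them. CFL1, the actin-severing protein cofilin, had levels of 4.26 with siGRB2, 2.95 with siControl, 3.82 with miR-376c and 3.85 with miControl, a difference of 1.31 ± 0.03 (2 probes). WDR1, which disassembles cofilin-decorated filaments, had levels of 0.41, -0.87, -0.18 and 0.03, a difference of 1.28 ± 0.04 (2 probes). CORO1B, a coronin that directs cofilin and the ARP2/3 complex at the leading edge, had levels of -0.41, -2.13, -1.04 and -0.66, a difference of 1.72 ± 0.06 (2 probes). In all 3 genes siGRB2 was the highest and siControl the lowest array. CTTN, the branch-stabilising protein cortactin (0.97 ± 0.74), RAC2, a small GTPase (0.92 ± 0.60), MYH9, the heavy chain of non-muscle myosin (0.86 ± 0.24), CAPZB, a capping protein subunit (0.80 ± 0.15), and RHOB (0.72 ± 0.28) were also higher. ARPC5, a subunit of the ARP2/3 complex, was lower (-0.72 ± 0.03), with levels of 4.05 with siGRB2, 4.77 with siControl and 3.98 with miControl, and so was CAPZA2, another capping protein subunit (-0.53 ± 0.01).

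For genes with large differences on every probe, some promoters are shown as examples. Others, such as those of FTL, NR3C1 and S100A11, are left out. The promoters shown are those of the 3 filament disassembly genes, of AREG and of MT1X, a metallothionein described below. They are RefSeq sequences of GRCh38.p14, running from 250 bases before to 50 after the gene start, 5′ to 3′. Capitals mark matches, on either strand, to the AP-1 motif TGANTCA, the cAMP response element TGACGTCA, the ETS core CCGGAA, the GC box GGGCGG, the TATA box TATAAA and TGCNCNC. The last is a loose form of the metal response core, and adjoining matches run together.
CFL1 (chr11:65858131-65858430, minus strand): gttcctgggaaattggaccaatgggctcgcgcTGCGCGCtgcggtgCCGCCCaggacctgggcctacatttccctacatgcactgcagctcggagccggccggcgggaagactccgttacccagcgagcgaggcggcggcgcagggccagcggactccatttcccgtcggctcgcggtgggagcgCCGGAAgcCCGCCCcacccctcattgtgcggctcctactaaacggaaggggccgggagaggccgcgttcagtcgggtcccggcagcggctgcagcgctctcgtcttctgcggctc
WDR1 (chr4:10116750-10117049, minus strand): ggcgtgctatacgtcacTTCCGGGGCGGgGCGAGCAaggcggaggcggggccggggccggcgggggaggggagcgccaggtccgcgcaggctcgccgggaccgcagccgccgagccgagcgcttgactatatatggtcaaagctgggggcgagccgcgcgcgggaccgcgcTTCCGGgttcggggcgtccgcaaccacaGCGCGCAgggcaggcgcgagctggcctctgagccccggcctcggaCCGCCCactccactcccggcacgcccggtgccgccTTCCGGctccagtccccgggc
CORO1B (chr11:67443427-67443726, minus strand): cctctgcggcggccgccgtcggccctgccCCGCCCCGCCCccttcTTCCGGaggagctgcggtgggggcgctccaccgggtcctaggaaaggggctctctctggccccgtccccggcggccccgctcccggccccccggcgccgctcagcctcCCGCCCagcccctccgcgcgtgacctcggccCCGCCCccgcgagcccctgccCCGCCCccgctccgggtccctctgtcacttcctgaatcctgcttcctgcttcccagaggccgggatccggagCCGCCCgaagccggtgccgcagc
AREG (chr4:74444886-74445185, plus strand): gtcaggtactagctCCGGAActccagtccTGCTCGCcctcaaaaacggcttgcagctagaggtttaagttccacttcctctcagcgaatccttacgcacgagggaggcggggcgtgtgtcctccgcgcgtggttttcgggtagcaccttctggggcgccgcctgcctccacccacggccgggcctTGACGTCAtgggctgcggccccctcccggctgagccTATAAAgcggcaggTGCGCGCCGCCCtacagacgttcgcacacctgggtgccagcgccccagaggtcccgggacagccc
MT1X (chr16:56682220-56682519, plus strand): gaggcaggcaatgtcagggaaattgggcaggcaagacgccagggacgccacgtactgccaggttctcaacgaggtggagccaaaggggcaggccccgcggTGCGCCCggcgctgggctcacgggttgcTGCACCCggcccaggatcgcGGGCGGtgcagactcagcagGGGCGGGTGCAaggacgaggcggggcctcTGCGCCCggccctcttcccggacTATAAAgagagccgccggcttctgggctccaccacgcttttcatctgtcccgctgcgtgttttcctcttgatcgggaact

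AREG was the only one of these 5 promoters with a cAMP response element, and AREG and MT1X had a TATA box. MT1X had 4 matches to the loose metal response core, against 1 in CFL1, 2 in WDR1 and AREG and 0 in CORO1B. CORO1B had 6 GC boxes. Across the members with a promoter in the table, such matches were about as frequent as in all genes tested, which include the members. A cAMP response element was found in 3.2% of 1010 higher members, 2.8% of 541 lower members and 3.3% of 2691 genes tested. An ETS core was found in 29.5%, 30.7% and 29.3% of the same sets, a GC box in 69.9%, 71.2% and 69.8%, a TATA box in 4.8%, 5.9% and 5.6%, an AP-1 motif in 4.7%, 5.2% and 4.6%, and the loose metal response core in 63.3%, 61.7% and 61.7%. Over all 27305 promoters of the table the shares were 2.0%, 17.6%, 44.6%, 12%, 7.8% and 55.2% in that order. The median GC content was 65.7% for higher members, 64.7% for lower members and 65.7% for the genes tested. In the 1140 genes whose probes disagreed, the shares were 3.6%, 28.5%, 68.9%, 6.1%, 4.4% and 60.3% in the same order, and the median GC content was 66.0%. Among members at least 1.5-fold lower (129 promoters), 1.6% had a TATA box and 7.0% an AP-1 motif. Among those at least 1.5-fold higher (358 promoters) these shares were 3.9% and 5.3%. No difference between the sets was tested.

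Of 36 gene lists, 35 had at least 1 gene with 2 or more probes, and the median of 8 lists lay at least 0.25 (log2) from that of all genes. The lists below all genes were mitosis (-0.47), histone genes (-0.34), the mitochondrial respiratory chain (-0.30) and proteasome subunits (-0.27). The lists above all genes were receptor tyrosine kinases other than ERBB (0.36, 4 genes), mucins and S100 proteins (0.34, 7 genes), TGF-beta, activin and BMP (0.30, 6 genes) and ATF4 targets and tRNA synthetases (0.26, 5 genes). Splicing factors (-0.25) and keratins and epithelial junctions (0.25) lay at the limit. The histone value turned to 0.02 when all 68 histone genes with at least 1 usable probe were taken, and that of the ATF4 list turned below 0 with the brightest probe of each gene. The shares of all genes tested beside which each list count below stands are 38.3% higher and 19.7% lower, or 18.6% and 39.7% with arrays aligned on their medians. These are descriptions of 2 arrays, and the lists with few genes can turn on 1 of them.

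Mitotic genes were mostly lower with siGRB2 than with siControl. Of 18 such genes, 10 (55.6%) had all probes lower and 3 (16.7%) all probes higher, beside 19.7% and 38.3% of all genes tested. SMC4, a condensin subunit, had levels of 2.49 with siGRB2, 3.38 with siControl, 2.82 with miR-376c and 2.64 with miControl, a difference of -0.88 ± 0.16 (2 probes). NEK2, a centrosomal kinase, had levels of -0.45, 0.22, -0.10 and -0.42, a difference of -0.67 ± 0.02 (2 probes). CENPF, a kinetochore protein (-0.59 ± 0.36), SMC2, the partner of SMC4 (-0.46 ± 0.04), SGO1, a protector of centromeric cohesion (-0.46 ± 0.17), NCAPD2, a further condensin subunit (-0.45 ± 0.29), and CCNB1, the mitotic cyclin (-0.36 ± 0.48), were lower as well. PLK1, a mitotic kinase, was higher (0.35 ± 0.14), as were the kinesins KIF22 and KIF4A, and the 3 probes of MKI67 disagreed. Against miControl the median of the list was -0.04 for siGRB2 and 0.20 for siControl, so there siControl lay farther off. Against miR-376c the median was -0.19 for siGRB2 and 0.09 for siControl, so there siGRB2 lay farther off. When arrays were aligned on their medians, 13 genes were lower and 0 higher.

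Of 21 DNA replication genes, 7 (33.3%) were lower and 4 (19%) higher, or 11 and 1 with arrays aligned on their medians. The median less that of all genes was -0.12, and -0.49 when all 80 genes of the list with at least 1 usable probe were taken. The lower genes included the replication clamp PCNA (-0.66 ± 0.04), the epigenetic factor UHRF1 (-0.71 ± 0.13) and the cyclin CCNE2 (-0.71 ± 0.17). PCNA levels were 2.59 with siGRB2, 3.25 with siControl, 3.06 with miR-376c and 2.52 with miControl, so siGRB2 and miControl lay close together. POLE, a replicative polymerase subunit, was higher (0.77 ± 0.05). Of 13 histone genes 7 were lower (53.8%) and 4 higher (30.8%), or 4 and 4 with the 75th percentile taken over detected probes, and histone genes are close copies whose probes can share signal.

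Respiratory chain, proteasome and splicing genes were lower more often than higher. In the brightest bin of all genes, 28.4% were higher and 30.8% lower, and the part of signal level in these lists was not tested. In the respiratory chain list, 6 of 12 genes (50%) were lower, beside 19.7% of all genes, with UQCRH, a subunit of complex III, the lowest at -0.58 ± 0.21, and 1 was higher, the ATP synthase subunit ATP5MF (0.54 ± 0.03). Of 11 proteasome genes 4 (36.4%) were lower, led by the assembly chaperone PSMG4 (-0.72 ± 0.52), and 0 were higher, or 2 lower and 1 higher after quantile normalization. Splicing factors divided into 15 lower (42.9%) and 10 higher (28.6%) of 35, beside 19.7% and 38.3% of all genes, or 22 and 6 with arrays aligned on their medians. Of the higher genes, PRPF31, a component of the tri-snRNP (0.87 ± 0.42), and SON, a splicing co-factor of nuclear speckles (0.75 ± 0.08), had the largest differences. The median of the cytosolic ribosomal proteins was -0.01 less that of all genes, and their counts turned with the scaling. Of 39, 11 were higher and 8 lower, but 1 and 23 with arrays aligned on their medians, and 18 and 7 with the 75th percentile taken over detected probes. RPL29 had the largest difference (0.64 ± 0.20, 4 probes). The medians of siGRB2 less miControl for the respiratory, proteasome and splicing lists were 0.01, 0.00 and 0.07. Those of siControl less miControl were 0.17, 0.18 and 0.15. Less miR-376c, the medians were 0.02, -0.07 and -0.09 for siGRB2, and 0.12, 0.02 and 0.01 for siControl. With that reference siGRB2 lay farther off in the proteasome and splicing lists, and siControl in the respiratory list.

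Lysosomal and autophagy genes were higher in 11 of 23 (47.8%) and lower in 2 (8.7%), beside 38.3% and 19.7% of all genes, or 7 and 5 with arrays aligned on their medians, with a median 0.24 above that of all genes. PSAP, the precursor of the saposins that activate sphingolipid hydrolases, differed by 0.98 ± 0.46, and TPP1, a lysosomal peptidase, by 0.95 ± 0.04 (2 probes each). TPP1 levels were 1.09 with siGRB2, 0.14 with siControl, 0.81 with miR-376c and 0.62 with miControl, so siGRB2 was highest. The autophagy factors ATG13 (0.76 ± 0.38), ATG9A (0.73 ± 0.63) and ATG7 (0.53 ± 0.14) and TFE3, a transcription factor of lysosomal genes (0.68 ± 0.10), were higher. The list median was 0.10 for siGRB2 less miControl and -0.11 for siControl less miControl.

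Stress and metal response genes went both ways. Of 16 metallothionein and heat shock genes 6 were higher and 6 lower (37.5% each), or 4 and 8 with arrays aligned on their medians. MT1X, a metallothionein that binds zinc and copper, had levels of 1.84 with siGRB2, 0.62 with siControl, 1.71 with miR-376c and 1.68 with miControl, a difference of 1.22 ± 0.11 (2 probes). The metallothioneins are close copies of one another, so the member measured is uncertain. STIP1, a co-chaperone (0.90 ± 0.15), and HSP90AB1 (0.52 ± 0.01) were higher, while HSPH1 (-0.60 ± 0.35), the chaperonin subunit CCT4 (-0.43 ± 0.48) and HSP90AA1 (-0.39 ± 0.19, 3 probes) were lower. In the NRF2 list 6 of 13 genes (46.2%) were higher and 5 (38.5%) lower, or 2 and 9 with arrays aligned on their medians. Among them, FTL was higher whereas PRDX1, a peroxiredoxin (-0.71 ± 0.47), and AKR1B10, an aldo-keto reductase (-0.51 ± 0.14), were lower.

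Of 7 mucin and S100 genes 5 (71.4%) were higher and 2 (28.6%) lower, or 3 and 2 with arrays aligned on their medians. In the mucin and S100 list, MUC2 (0.73 ± 0.20), MUC4 (0.51 ± 0.30, 4 probes), MUC16 (0.46 ± 0.21) and MUC1 (0.33 ± 0.30) were higher. S100A11, a calcium-binding protein of epithelial cells, had levels of 4.54 with siGRB2, 3.42 with siControl, 4.33 with miR-376c and 4.29 with miControl, a difference of 1.12 ± 0.02 (2 probes). The annexins ANXA7 (-0.93 ± 0.42) and ANXA2 (-0.29 ± 0.13) were lower in the same list. Among keratins and junction proteins 7 of 15 were higher (46.7%) and 2 lower, which turned to 2 higher and 5 lower with arrays aligned on their medians, with CTNNB1, the junction and WNT protein beta-catenin, highest (0.82 ± 0.73). The receptors FGFR1 (0.47 ± 0.10) and ROR1 (0.57 ± 0.31) and the activin receptor ACVR1 (0.78 ± 0.19) were higher as well. The ACVR1 levels of siGRB2 and miR-376c were -1.85 and -1.84, and siControl was lowest at -2.63. No gene of the HOX cluster had 2 usable probes.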

How the data were processed

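RNA from 4 transfections of HuCCT1 was read on 1 array each, all on 1 slide. The authors deposited, per array, spot intensity values and quality flags from Agilent Feature Extraction (version 10.7.3.1), in which the processed signal is already background-subtracted. The authors also deposited log2 values per probe, shifted to the 75th percentile in GeneSpring GX, which served as an alternative.

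Processed intensities of non-control spots were converted to log2 and the 75th percentile of the array was subtracted. Spots with an outlier flag (289 to 329 an array) were left out, and spots of 1 probe were averaged. The 75th percentile signal was 1995 with siGRB2 and 1719 with siControl, and no spot was saturated. A probe was used when more than 0.5 of its spots were well above background on both arrays (21440 of 34127 probes). Names came from a RefSeq table of GRCh38.p14 by accession for 25422 probes (74.5%). The median SD between spots of 1 probe was 0.049 to 0.054 (log2), a measure of noise within an array that leaves out differences between cultures.

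A gene was the mean over its probes, with no level on an array where 1 of them lacked a value, with the SD between probes as error. With 1 array a side no test was made. The number of arrays limits the precision. Members and the 36 gene lists were chosen with earlier results of these data known. Genes were named by a rule: GRB2, IL1B and MMP9, the 10 highest and 10 lowest members by the probe closest to 0, up to 2 members each way for each list, all members of the EGFR and GRB2 list, and the member closest to 0. Further genes of a list were named after their values were seen, and a few genes that the rule named are not reported here. The gene step was tested on simulated data. Promoters were matched by symbol (2691 of 3234 genes). NPPB is not in the promoter table. Python (3.11.15), numpy (2.4.6), pandas (2.3.3), R (4.3.3) and limma (3.58.1) were used. The alternatives were 3 other scalings, background correction by normexp with an offset of 50, applied to spot and background medians, the deposited values, flagged spots kept, 2 stricter filters on dim probes, a sign rule about the median difference, and miControl in place of siControl.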

Additional observations from a re-analysis of the deposited data

How the results depend on the processing

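With 1 array a side no replicate could be left out, and no value here has an error between cultures. No paired analysis was possible because siGRB2 and siControl had 1 array each. Members numbered 1783 to 1940 under the other scalings, the normexp correction, the deposited values, flagged spots kept and the sign rule about the median. When probes also had to exceed the median signal, 1231 of 2110 genes tested were members. Of those 2110 genes 735 (34.8%) were higher and 23.5% lower, beside 38.3% and 19.7% in the main setting. Alignment on medians gave 601 higher and 1284 lower members, and miControl as the control gave 1025 lower ones. The counts of genes at least 2-fold higher and lower were 18 and 75 with alignment on medians, 36 and 21 after quantile normalization, 45 and 24 in the deposited values, 22 and 6 above the median signal, and 9 and 3 with miControl. The normexp correction gave 16 at least 2-fold higher. The causes were not tested.

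List medians less the median of all genes moved by more than the median SD between the probes of 1 gene (0.32) in 7 cases. This count leaves out lists at least 0.25 from all genes whose sign turned, which are given after it. Above the median signal, EGFR and GRB2 signalling came to -0.24. With the brightest probe of each gene, interleukin 1 and NF-kB came to -0.53, integrins and focal adhesion to -0.56 and extracellular proteolysis to 0.39. With single-probe genes included, DNA replication came to -0.49. With miControl, mitosis came to -0.044 and the unfolded protein response to 0.20. Among lists at least 0.25 from all genes, the sign turned for ATF4 targets above the median signal (-0.031) and with the brightest probe (-0.39). It also turned for the respiratory chain with miControl (0.0057), and for histone genes with single-probe genes included (0.023). The ATF4 list with the brightest probe (from 0.26) and the histone list (from -0.34) also moved by more than 0.32. The other 409 list values kept within that spread.

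Among the 155 members followed singly, 26 differences of at least 1.5-fold turned sign, all with miControl in place of siControl: HDAC9 (-0.60), MOV10 (-0.34), TBC1D3B (-0.29), IRAK1 (-0.25), PSAP (-0.24), FLNA (-0.17), SH3GL1P2 (-0.16), FTL (-0.15), SIRT2 (-0.14), POLE (-0.11), H2BC12 (-0.10), RAB1B (-0.093), TCF7L2 (-0.090), TOMM40 (-0.078), NF1 (-0.064), SPRY4 (-0.063), SON (-0.0062), SMARCA2 (0.034), PSMG4 (0.059), PCNA (0.069), ARPC5 (0.073), PRDX1 (0.073), HSPH1 (0.15), ANXA7 (0.33), SEC63 (0.34), MRPL19 (0.56). Smaller differences were left out of this count, though some also turned sign against miControl, such as VEGFA (0.32) and CTNND1 (-0.11). Other members were not followed singly, so 26 is a share neither of the 155 nor of all members. The siGRB2 array is shared by both comparisons.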

Other observations

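Chromatin modifiers were higher in 16 of 35 genes (45.7%) and lower in 5 (14.3%), near the 38.3% and 19.7% of all genes tested, or 10 and 8 with arrays aligned on their medians. The histone demethylase KDM2B (0.83 ± 0.65), the demethylase KDM5B (0.70 ± 0.51), the methyltransferase KMT2A (0.67 ± 0.45, 4 probes) and the deacetylases HDAC9 (0.68 ± 0.12) and HDAC11 (0.61 ± 0.29) were higher, and SMARCA2, an ATPase of the SWI/SNF complex (-0.67 ± 0.74), was lower. The HDAC9 level was -3.66 with siGRB2, -4.34 with siControl, -3.60 with miR-376c and -3.06 with miControl, so the value lay between the negative controls. Genes of microRNA processing were lower in 6 of 13 (46.2%) and higher in 2 (15.4%), beside 19.7% and 38.3% of all genes tested. TSN, an RNA-binding subunit of the C3PO nuclease (-0.76 ± 0.10), and the decapping factor DCP1A (-0.66 ± 0.30) were lower, and XPO5, the exporter of precursor microRNAs (0.68 ± 0.39, 3 probes), was higher. Interferon response genes were lower in 6 of 17 (35.3%), among them HLA-B (-0.34 ± 0.04), and higher in 4 (23.5%), among them IRF3, a transcription factor (0.40 ± 0.11). These counts were 8 and 1 with arrays aligned on their medians. IRF3 levels were 0.54 with siGRB2, 0.14 with siControl, 0.16 with miR-376c and 0.16 with miControl, so siGRB2 stood apart from 3 arrays that lay close together.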
